A study of Mus musculus with 6 samples.

Results

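The Hox genes were examined in mouse cerebellum as markers of the boundary between the cerebellum and the brainstem behind it. They were taken as every probe set whose platform annotation names exactly 1 gene, and that gene a member of the HoxA, HoxB, HoxC or HoxD cluster with its number. This gave 48 probe sets of 33 genes, out of 34945 probe sets with 1 symbol and 18193 genes. Where a gene had several probe sets, the one with the highest mean over all arrays stood for it. RefSeq lists 39 mouse Hox genes. Hoxd4 and Hoxb8 shared their probe sets with a neighbour, and Hox genes outside the 33 were not analysed here as members.

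Dissected and frozen cerebellum was profiled in 3 samples from transgenic daDREAM mice and 3 from wild-type mice, with 1 Affymetrix mouse expression array each. The DREAM protein (gene Kcnip3) represses transcription until calcium binds it, and daDREAM is a mutant form that represses irrespective of calcium. The sources used here do not give the promoter that drives the transgene, the age, sex or strain of the mice, or whether a sample was 1 animal or a pool, so p-values measure only the spread between these samples. Each value is a log2 expression value that the authors deposited, with no detection call. Pearson correlations between arrays across probe sets ran from 0.973 to 0.997. The mean of 18 probe sets for hybridization controls, RNA added in fixed amounts, was 9.47 to 10.47 on daDREAM arrays and 8.99 to 9.48 on wild-type arrays. No scan or extraction batch is named in the labels.

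Hox genes encode homeodomain transcription factors that give cells along the head-to-tail axis their regional identity. They lie in 4 clusters, and genes at the same place in each cluster form 13 paralog groups, the low numbers acting nearest the head. In the developing hindbrain each segment behind the first carries its own combination of Hox genes, and the first segment, from which the cerebellum grows, carries none. Brainstem neurons keep part of this Hox code into adult life, so Hox transcripts in a cerebellar dissection could come from tissue behind the boundary. Other sources of Hox transcripts were not tested. Groups 9 to 13 pattern the trunk, the limbs and the genital region, and are not part of the hindbrain code.

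Most Hox genes lay in the dim range of the arrays in both genotypes. The dim range was set with 69 olfactory and vomeronasal receptor genes, whose transcripts are not expected in cerebellum. Its 95th percentile, used as the limit, was 4.95, 5.23 and 5.44 on the daDREAM arrays and 5.15, 5.12 and 5.38 on the wild-type arrays. Of the 33 Hox genes 24 lay below the limit on all 6 arrays, 3 lay above it on some arrays and 6 lay above it on all 6. These 6 are 18.2% of the Hox genes, where 57.1% of all genes lay above it on all 6. Of the 69 receptor genes 2 did (2.9%), but these genes set the limit, so their low share was fixed in advance. The highest probe set was taken from 48 for the 33 Hox genes, 77 for the 69 receptor genes and 34945 for all 18193 genes. The median over the Hox genes was 4.20 (mean of 6 arrays), against 3.55 over the receptor genes and 6.13 over all genes. A value depends on the sequence of its probes as well as on the transcript, so the position of a gene against the limit is a description and not a detection test.

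**Figure D1:**
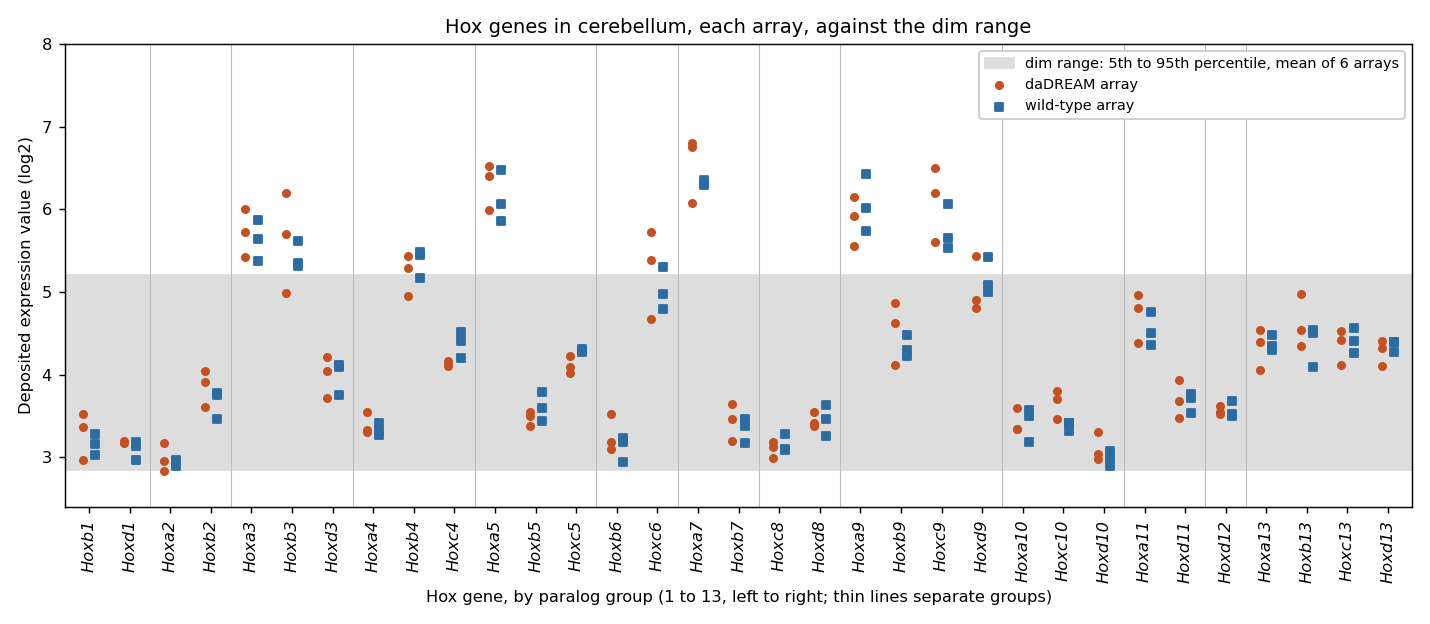
Expression value (log2) of each of the 33 Hox genes on the 3 daDREAM arrays (circles) and the 3 wild-type arrays (squares), in order of paralog group, with the mean dim range of the arrays in grey. The 24 genes below the limit include all 4 measured genes of groups 1 and 2, and Hoxa7, Hoxa5, Hoxa9, Hoxc9, Hoxa3 and Hoxb3 lie above it.

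All 4 measured genes of groups 1 and 2, which mark the front of the Hox domain, lay within the dim range, at the 11.6th to the 59.4th percentile of the receptor genes. Hoxa2, which patterns the second hindbrain segment and is the Hox gene expressed nearest the cerebellum, had 2.84, 3.17 and 2.95 on the daDREAM arrays and 2.97, 2.95 and 2.89 on the wild-type arrays. All 6 values of Hoxa2 were below the median of the receptor genes on their arrays, and the genotypes overlapped. Hoxb1, which gives the fourth segment its identity, had 2.97, 3.37 and 3.52 in daDREAM and 3.16, 3.03 and 3.28 in wild type. Hoxb2, active in the third and the fourth segments, had 3.61, 4.04 and 3.91 in daDREAM and 3.75, 3.46 and 3.78 in wild type. Hoxd1, also of these groups, averaged 3.18 ± 0.015 in daDREAM and 3.10 ± 0.11 in wild type (SD, n = 3 each). The closest that any of these 4 genes came to the limit was -1.19 (value minus limit), for Hoxb2.

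The genes of groups 3 to 5, which mark the rear hindbrain and the neck part of the spinal cord, divided. Hoxa3, which patterns pharyngeal arch derivatives, had 5.42, 6.0 and 5.73 in daDREAM and 5.64, 5.38 and 5.87 in wild type. Hoxb3, of the same group, had 4.99, 5.70 and 6.20 in daDREAM and 5.35, 5.32 and 5.62 in wild type. Both lay above the limit on all 6 arrays, Hoxb3 by as little as 0.040 in daDREAM replicate 1. Hoxa5, which is needed in the brainstem and in phrenic motor neurons for breathing, had 5.99, 6.40 and 6.53 in daDREAM and 6.07, 5.86 and 6.48 in wild type. Hoxb4 had 4.95, 5.44 and 5.29 in daDREAM and 5.45, 5.17 and 5.48 in wild type, above the limit on 4 arrays, equal to it on daDREAM replicate 1 and below it on daDREAM replicate 3. The genotypes overlapped at all 4 of these genes. The remaining 5 genes of groups 3 to 5, Hoxd3, Hoxa4, Hoxc4, Hoxb5 and Hoxc5, had means of 3.99, 3.37, 4.25, 3.54 and 4.20 and lay below the limit on every array.

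In groups 6 to 8, which act in the trunk and reach the rear hindbrain at most, Hoxa7 alone of 6 genes lay above the limit on all arrays. It had 6.08, 6.80 and 6.76 in daDREAM and 6.31, 6.36 and 6.29 in wild type, and daDREAM replicate 1 was the lowest of the 6 arrays. Hoxc6, a marker of motor neurons that supply the forelimb, had 4.67, 5.39 and 5.73 in daDREAM and 4.79, 4.98 and 5.30 in wild type, above the limit on 2 daDREAM arrays. Hoxb6, Hoxb7, Hoxc8 and Hoxd8 had means of 3.20, 3.39, 3.13 and 3.45.

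Genes that are not part of the hindbrain code reached the same values. Hoxc9, which assigns motor neurons of the thoracic spinal cord, had 5.60, 6.20 and 6.50 in daDREAM and 5.65, 5.53 and 6.06 in wild type. Hoxa9, a regulator of blood stem cells, had 5.56, 6.15 and 5.92 in daDREAM and 6.02, 5.74 and 6.43 in wild type. Both lay above the limit on all 6 arrays, as did 4 of the 19 genes of groups 1 to 8 (21.1%), against 2 of the 14 genes of groups 9 to 13 (14.3%). This difference in share was not tested. Hoxd9 was above the limit on 1 array, and the remaining 11 genes of groups 9 to 13, such as Hoxb13, a regulator of prostate development, lay below it on all arrays. With groups 9 to 13 themselves as the dim range the limit was 5.57 to 6.19, and 2 genes of groups 1 to 8 lay above it on all arrays, where 47% of all genes did.

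By cluster, 4 of 9 HoxA genes, 1 of 9 HoxB genes, 1 of 7 HoxC genes and 0 of 8 HoxD genes lay above the limit on all 6 arrays. The medians over these genes were 4.63, 3.76, 4.25 and 3.63.

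Where a gene above the limit had further probe sets, those lay below it. Of the 6 genes above it, Hoxa7 and Hoxc9 had 1 probe set each, and the other 4 had 1 probe set above the limit and none besides. The second probe set of Hoxa5 had a mean of 3.46 where the first had 6.22, and that of Hoxa9 had 3.26 where the first had 5.97. Hoxb3 had 5.53 and 3.50, and Hoxa3 had 5.67 at one probe set and 4.04, 3.26 and 3.19 at the others. The brightest probe set of Hoxa5 is of the _x_at class, whose probes the platform marks as able to bind other transcripts. Hoxb4, close to the limit, had 5.30 and 3.20. Hoxc6 had 5.14 and 4.94 at a pair of probe sets and 4.20 at the third. Among all 48 Hox probe sets, 6 were above the limit on all arrays, where 49.7% of the probe sets with 1 symbol were, and 38 were below it on all arrays. What the probes of each set bind was not tested.

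**Figure D2:**
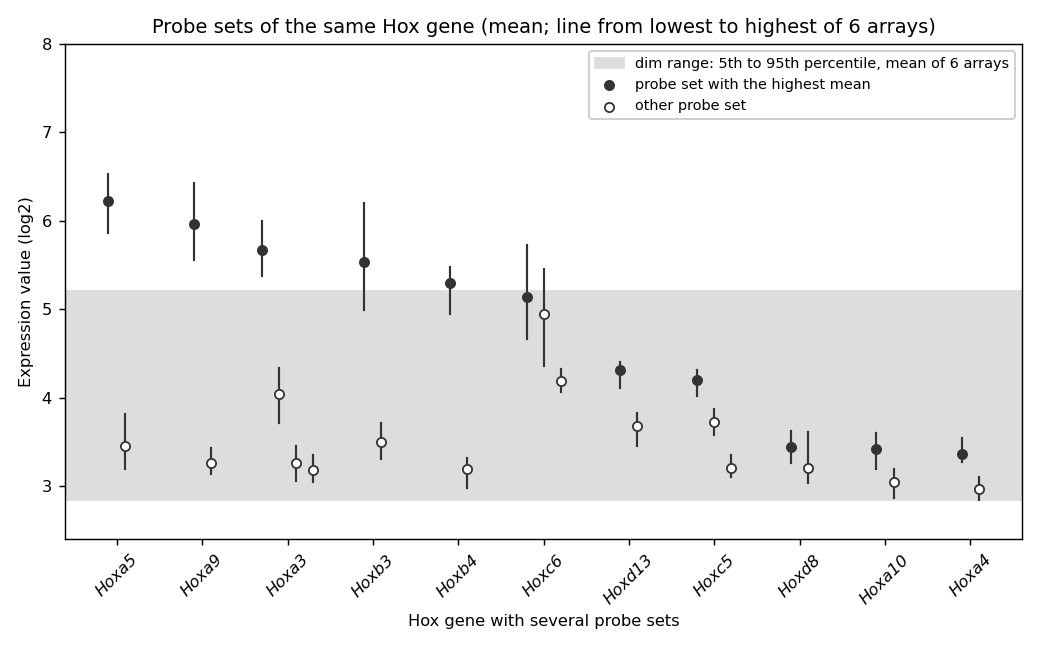
Probe sets of the 11 Hox genes that have several, with the mean (point) and the span from the lowest to the highest of 6 arrays (line), in log2 units, and the mean dim range in grey. For Hoxa5, Hoxa9, Hoxa3 and Hoxb3 the filled point lies above the dim range and every open point lies in it.

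The count of genes above the limit depended on where the limit was set. With the 99th percentile of the receptor genes as limit (6.16 to 6.47 on the 6 arrays) 0 of the 33 genes lay above it on all arrays, where 42.6% of all genes did. With 81 keratin and keratin-associated genes as dim range the limit was 6.30 to 7.23 and the count was 0, where 31.7% of all genes were above. With the mean of all probe sets of a gene in place of the highest, 2 genes lay above the limit, where 50.1% of all genes did.

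The promoter sequences of the 3 genes of groups 1 and 2 that the table holds are shown here beside that of Hoxa7, the gene with the highest values, because their values lay at opposite ends of the Hox range. The 250 bases before the gene start were read from RefSeq sequence (GRCm38.p6), which held 21 promoters of 19 of the 33 genes. Capitals mark TGATNNAT on either strand, the motif at which Hox proteins bind together with Pbx. The regions are chr6:52218574-52218823 (minus strand) for Hoxa7, chr6:52164832-52165081 (minus strand) for Hoxa2, chr11:96365508-96365757 (plus strand) for Hoxb1 and chr2:74762730-74762979 (plus strand) for Hoxd1.
Hoxa7: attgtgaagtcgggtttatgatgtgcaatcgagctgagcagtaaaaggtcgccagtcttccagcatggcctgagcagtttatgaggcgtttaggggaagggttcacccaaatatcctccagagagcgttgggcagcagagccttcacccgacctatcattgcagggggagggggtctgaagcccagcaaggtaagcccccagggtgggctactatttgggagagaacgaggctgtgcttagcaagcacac
Hoxa2: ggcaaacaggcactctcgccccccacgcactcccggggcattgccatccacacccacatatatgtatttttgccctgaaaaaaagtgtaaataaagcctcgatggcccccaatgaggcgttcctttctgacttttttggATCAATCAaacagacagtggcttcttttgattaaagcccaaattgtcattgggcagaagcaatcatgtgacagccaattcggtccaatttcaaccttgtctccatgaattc
Hoxb1: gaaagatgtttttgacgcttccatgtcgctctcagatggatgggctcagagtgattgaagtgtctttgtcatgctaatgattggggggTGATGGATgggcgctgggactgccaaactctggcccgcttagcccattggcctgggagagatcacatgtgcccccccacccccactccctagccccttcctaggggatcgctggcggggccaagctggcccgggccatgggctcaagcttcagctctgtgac
Hoxd1: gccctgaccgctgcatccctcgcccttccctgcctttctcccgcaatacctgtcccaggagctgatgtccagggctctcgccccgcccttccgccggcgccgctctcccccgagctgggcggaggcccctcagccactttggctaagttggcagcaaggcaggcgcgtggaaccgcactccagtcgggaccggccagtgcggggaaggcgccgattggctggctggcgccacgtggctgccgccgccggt
The motif stood as TGATGGAT at 162 bases before the gene start of Hoxb1 and as ATCAATCA at 111 bases before that of Hoxa2, and had no match in the windows of Hoxa7 and Hoxd1. It was in 3 of the 21 Hox promoters, 14.3%, the third being one of Hoxd11, and in 7.68% of all 32851 promoters of that length. The motif CTGTCA of Meis and Pknox proteins, on either strand, was in 2 of the 21 Hox promoters and in 15.9% of all promoters. GTCA on either strand, the core of the element bound by DREAM, which overlaps CTGTCA, was in 19 of the 21 Hox promoters, 90.5%, and in 80.2% of all promoters. CG pairs numbered 7 in the promoter of Hoxa7, and 6, 7 and 24 in those of Hoxa2, Hoxb1 and Hoxd1. Over all 21 Hox promoters they ran from 2 to 35 with a median of 13, against a median of 6 over all promoters, and 17 of the 21 exceeded that median. Hox promoters are dense in CG, the sequence state on which Polycomb complexes act, and the genes above the limit spanned much of that range: their 4 promoters in the table held 3 to 28 CG pairs, and the 17 promoters of the others 2 to 35.

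No Hox gene passed the test between genotypes. Each difference was taken as the daDREAM mean minus the wild-type mean (log2) and fitted with limma over all 45037 probe sets with Benjamini-Hochberg adjustment. Of the 48 Hox probe sets 0 passed an adjusted p of 0.05, and 0 passed an unadjusted p of 0.05, where 0% and 1.81% of all probe sets did. The smallest unadjusted p was 0.0725 (limma), and the smallest adjusted p was 0.998. Over the 33 genes the median difference was 0.057, with 21 higher and 12 lower in daDREAM (63.6% higher, against 51.2% of all genes). The median over all genes was 0.007, and over the 69 receptor genes it was 0.027 with 40 higher. The 95% intervals reached 0.35 to either side in the median. Their outermost bounds were 0.91 for Hoxc9, a factor of 1.88, and -0.68 for Hoxa9, a factor of 0.626. Differences within a gene's interval were not excluded with 3 arrays per genotype.

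**Figure D3:**
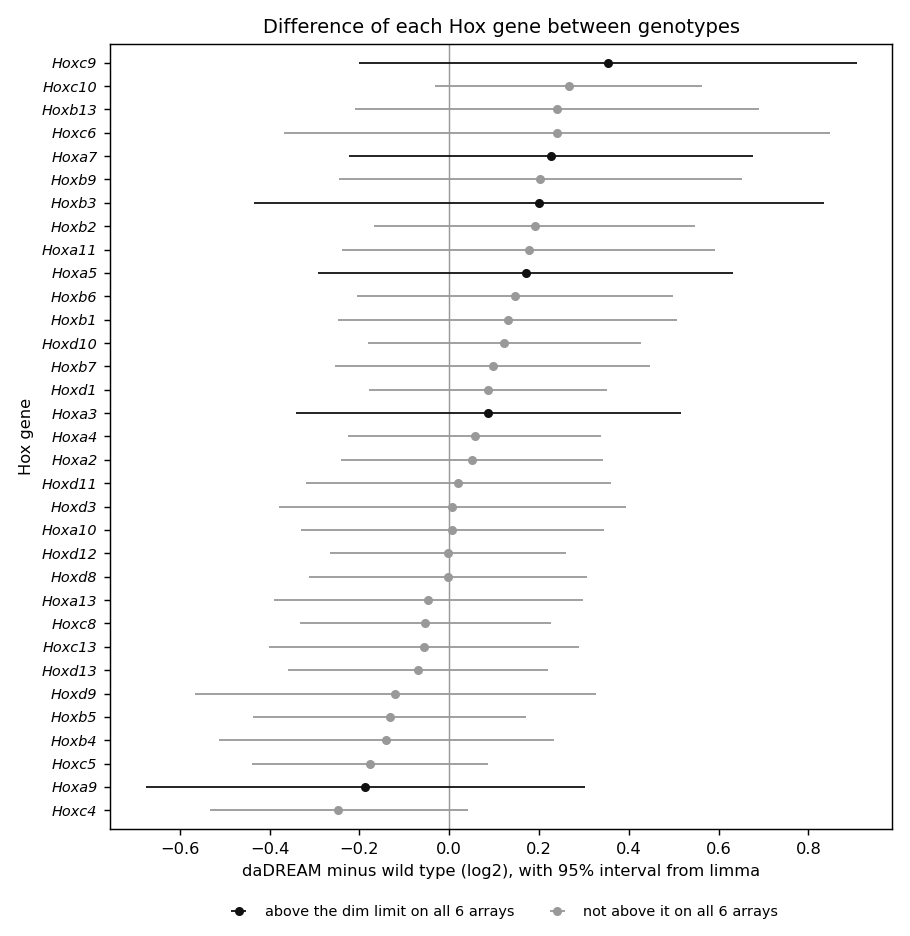
Difference of each Hox gene between genotypes (daDREAM minus wild type, log2) with its 95% interval from limma, 3 arrays per genotype, black for the 6 genes above the dim limit on all arrays. All 33 intervals include 0.

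Among the genes above the limit, Hoxc9 averaged 6.10 ± 0.46 in daDREAM and 5.75 ± 0.28 in wild type (SD, n = 3 each), differing by 0.35 (interval -0.20 to 0.91). Hoxa7 averaged 6.55 ± 0.41 in daDREAM and 6.32 ± 0.036 in wild type, a difference of 0.23 (interval -0.22 to 0.68). The differences of Hoxb3, Hoxa5 and Hoxa3 were 0.20, 0.17 and 0.087, and that of Hoxa9 was -0.19. At each of these 6 genes the genotypes overlapped at the brightest probe set. The second probe set of Hoxa9 went the other way, at 0.18 without overlap between genotypes. Averaged over its probe sets Hoxa9 differed by -0.003, and its brightest probe set differed by -0.003 without wild-type replicate 3. All further probe sets of Hoxb3, Hoxa5 and Hoxa3 were higher in daDREAM, as the brightest were. The sign of Hoxb3 rested on daDREAM replicate 3, without which its difference was -0.085, and that of Hoxa3 was -0.055 without daDREAM replicate 2 and -0.038 without wild-type replicate 2. With the hybridization control mean as a covariate 5 of the 6 turned to the other direction, Hoxc9 to -0.44, Hoxa7 to -0.25, Hoxa5 to -0.41, Hoxb3 to -0.71 and Hoxa3 to -0.32, and Hoxa9 stayed lower in daDREAM at -0.70. None passed limma in that fit, with adjusted p of 0.0911 for Hoxb3 and 0.516 for Hoxa7 at the ends of the range.

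The genotypes did not overlap at 3 of the 33 genes, 9.09%, against 5.59% of all genes (3.55% higher and 2.04% lower), and all 3 lay below the limit on every array. Hoxc10, which acts in the lumbar spinal cord, had 3.46, 3.70 and 3.80 in daDREAM and 3.32, 3.42 and 3.42 in wild type, a difference of 0.27 (interval -0.031 to 0.56). Hoxc4 had 4.16, 4.12 and 4.11 in daDREAM and 4.41, 4.20 and 4.52 in wild type, a difference of -0.25 (interval -0.53 to 0.041). Hoxc5 had 4.02, 4.09 and 4.23 in daDREAM and 4.27, 4.29 and 4.31 in wild type, a difference of -0.18 (interval -0.44 to 0.087). The other 2 probe sets of Hoxc5 differed by 0.083 and 0.0. Without daDREAM replicate 1 the genotypes did not overlap at 11 Hox genes, 9 higher and 2 lower, which is 33.3% of them against 34% of all genes. Without wild-type replicate 1 there were 5, 15.2% against 8.93% of all genes. The further genes with the smallest unadjusted p were Hoxb13 and Hoxb2 on the higher side, at 0.24 and 0.19, and Hoxb5 and Hoxb4 on the lower side, at -0.13 and -0.14.

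From array to array the Hox genes and the dim range moved partly in step. The median of the receptor genes was 3.32, 3.55 and 3.73 on the daDREAM arrays and 3.50, 3.50 and 3.65 on the wild-type arrays. The median of the Hox genes was 4.02, 4.11 and 4.11 on the daDREAM arrays and 4.22, 4.09 and 4.27 on the wild-type arrays. Both medians were lowest in daDREAM replicate 1, and within wild type both were highest in replicate 3. At 25 of the 33 Hox genes daDREAM replicate 1 was the lowest daDREAM array, a count for which the share over all genes was not taken. At 21 of the 33 daDREAM replicate 3 was the highest daDREAM array, a larger share than the 36.3% of all genes at which it was. Without daDREAM replicate 1 the median difference was 0.13 over the Hox genes and 0.12 over the receptor genes. In a fit that held the hybridization control mean as a covariate it was -0.32 over the Hox genes and -0.30 over the receptor genes, and 0.017 over all genes. The part of the array-wide dim level in the Hox differences was not tested further.

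**Figure D4:**
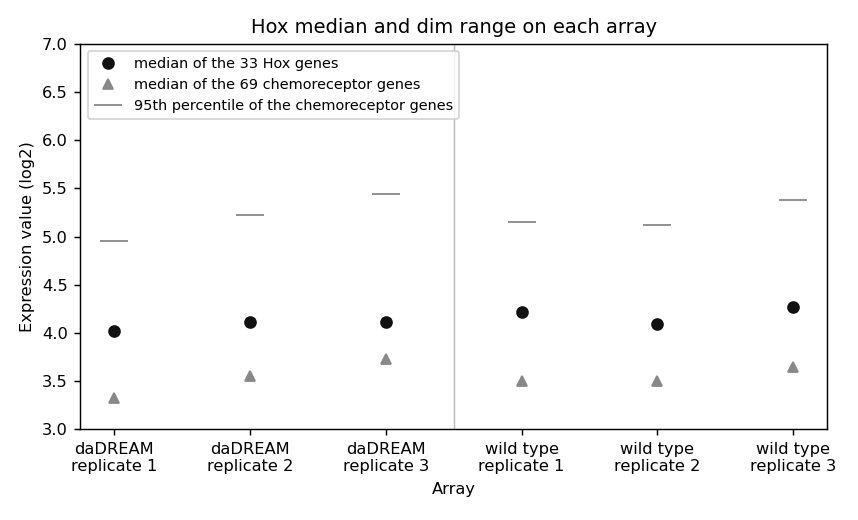
Median expression value (log2) of the 33 Hox genes (circles) and of the 69 receptor genes (triangles) on each array, with the 95th percentile of the receptor genes (bars). The Hox medians lie between 4.02 and 4.27 and below the bar on all 6 arrays.

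Markers of the cerebellum and of brainstem nuclei were read beside the Hox genes. The brainstem list was not restricted to nuclei from behind the boundary of Hox expression, so it does not stand for the Hox-expressing side. All 14 measured cerebellar markers lay above the limit on all 6 arrays, where 57.1% of all genes did, with a median of 11.75. Pcp2, of Purkinje cells, averaged 12.46 ± 0.023 in daDREAM and 12.41 ± 0.029 in wild type (SD, n = 3 each), and Pvalb and Calb1, calcium buffers, differed by -0.01 and -0.02. Of 11 markers of brainstem nuclei, 2 lay above the limit on all arrays (18.2%) and 8 on none, with a median of 4.04. Dbh, which makes noradrenaline, had 6.29, 6.63 and 6.87 in daDREAM and 6.59, 6.54 and 6.97 in wild type. Slc6a2, the noradrenaline transporter, had 5.34, 6.03 and 6.35 in daDREAM and 5.90, 5.83 and 6.01 in wild type. Prph, of cranial motor neurons, had 5.38, 5.39 and 5.61 in daDREAM and 5.06, 5.04 and 5.38 in wild type. Dbh, Slc6a2 and Prph have 3, 4 and 4 probe sets, of which only the brightest is given, and the others were not compared. Chat, of cholinergic neurons, averaged 4.22 ± 0.29 in daDREAM and 4.59 ± 0.14 in wild type, and Tph2, of serotonin neurons, averaged 2.96 ± 0.044 in daDREAM and 2.97 ± 0.042 in wild type, both below the limit on every array. The summed value of the 11 brainstem markers was 45.91 to 49.94 in daDREAM and 46.92 to 49.40 in wild type, and that of the 33 Hox genes was 134.47 to 146.93 in daDREAM and 136.38 to 143.94 in wild type. In these bulk samples fewer cells of a type and less RNA per cell cannot be told apart.

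Of the genes of the isthmic organiser, the embryonic signalling centre at the front border of the cerebellum, 3 of 12 lay above the limit on all arrays (25%, against 57.1% of all genes). En2, a homeobox gene that cerebellar granule cells keep expressing, averaged 9.27 ± 0.24 in daDREAM and 9.36 ± 0.062 in wild type (SD, n = 3 each). Irx2 averaged 6.19 ± 0.064 in daDREAM and 6.15 ± 0.20 in wild type. Otx2, which marks forebrain and midbrain in the embryo and choroid plexus in the adult, averaged 5.96 ± 0.36 in daDREAM and 5.78 ± 0.079 in wild type. En2 is also among the cerebellar markers and Otx2 among the choroid plexus markers. The other 9 organiser genes lay below the limit on every array. Among them Gbx2, which opposes Otx2 at the boundary, and En1 had means of 3.29 and 3.57, and the signals Fgf8, Fgf17 and Wnt1 had 3.30, 4.54 and 4.00. Pax5, Pax8, Lmx1b and Sp8 had 4.40, 3.85, 4.56 and 3.17. Of 10 forebrain markers 2 lay above the limit (20%), Ppp1r1b, which Purkinje cells also express, and Rgs9, with means of 9.05 and 7.08. The third by level, Emx1, had 5.19, and Six3 had 5.15.

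Tissues that touch the cerebellum were also measured beside the Hox genes. These lists were chosen with earlier results of these data known. All 12 choroid plexus markers were higher in daDREAM, where 51.2% of all genes were, with a median of 0.32. Their summed value was 70.54 to 73.05 in daDREAM and 65.81 to 68.24 in wild type, without overlap. Of the 12, 5 lay above the limit on all arrays (41.7%, against 57.1% of all genes) and 4 on none. Without overlap 7 were higher (against 3.55% of all genes). An unadjusted p under 0.05 stood at 6 of the 12 and at 259 of all 18193 genes, and 0 passed after adjustment (limma). Ttr, Ecrg4 and Clic6 had the highest means, and Sostdc1 and Calml4 differed by 1.07 and 0.51. Of 12 meningeal markers 9 were higher (75%) and 3 lower, with a median of 0.12. The sum of the 12 was 74.29 to 75.43 in daDREAM and 73.23 to 73.75 in wild type, also without overlap. The largest differences of these 12 were at Igf2 and Igfbp2, 0.32 and 0.58. Dcn and Col1a2 differed by 0.04 and 0.05, and the 3 lower, Lum, Foxd1 and Foxc1, by -0.03, -0.14 and -0.28. Without Igf2 and Igfbp2 the sums of the other meningeal markers were no longer separate between the genotypes. Of 10 ependymal markers 8 were higher (80%) and 1 lower, with a median of 0.12, and the sums of the 10 overlapped between genotypes. Cfap126, Foxj1 and Dynlrb2 had the largest differences, 0.41, 0.31 and 0.31. Rarres2, the brightest, and Ccdc153 each differed by 0.12, and Dnah5, the lower one, by -0.18. The part of these tissues in the Hox values was not tested.

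Most measured cofactors of Hox proteins stood above the dim limit on all arrays, where 57.1% of all genes did. Of 8 measured cofactors, homeodomain proteins that bind DNA with Hox proteins, 6 lay above the limit on all arrays (75%). Meis1 averaged 7.72 ± 0.27 in daDREAM and 7.87 ± 0.16 in wild type (SD, n = 3 each), and Pbx3 averaged 7.67 ± 0.31 in daDREAM and 7.56 ± 0.070 in wild type. Pbx2, Pknox1, Pknox2 and Meis3 had means of 7.62, 7.53, 7.34 and 6.58, and Meis2 and Pbx4, with 4.66 and 4.50, lay below the limit on every array. Differences of the 8 ran from -0.15 for Meis1 to 0.18 for Meis3, and none passed limma.

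**Figure D5:**
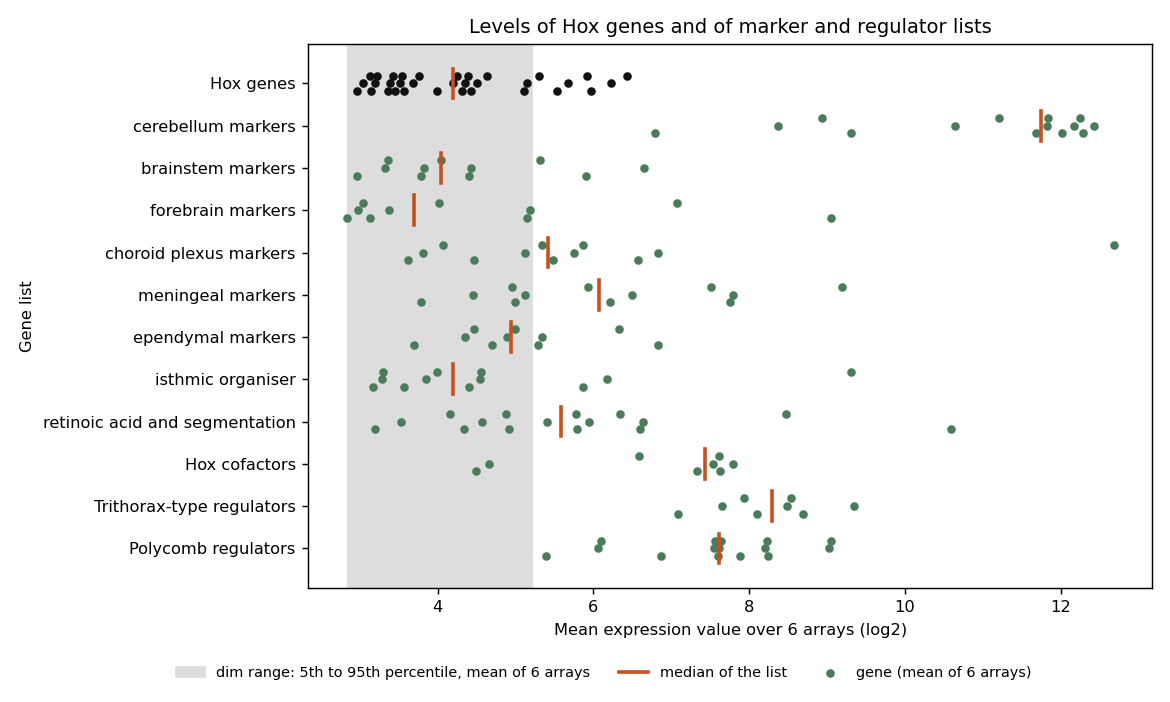
Mean expression value over 6 arrays (log2) of each gene of the Hox set and of 11 marker and regulator lists, with list medians as bars and the mean dim range in grey. The Hox median of 4.20 lies in the grey range near those of the brainstem and forebrain markers, and the medians of the cofactors and chromatin regulators lie above it.

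The chromatin regulators that keep Hox clusters silent or active were measured as a pair of lists. All 8 Trithorax-type regulators lay above the limit on all arrays, where 57.1% of all genes did. Among them were Kmt2a, a histone methyltransferase that maintains Hox expression, at a mean of 9.34 and a difference of -0.22, Kmt2b at -0.08 and the demethylase Kdm6b at -0.003. The interval of Kdm6b was wide, -0.86 to 0.85. Its lowest values were 7.88 in daDREAM replicate 3 and 7.78 in wild-type replicate 3. Of 15 Polycomb regulators, which silence Hox clusters, 14 lay above the limit on all arrays (93.3%), and 8 were higher and 7 lower in daDREAM. Phc2, Jarid2 and Ezh1 had the highest means, 9.05, 9.03 and 8.25. Ring1, a ubiquitin ligase of the complex, had 7.43, 7.58 and 7.40 in daDREAM and 7.69, 7.81 and 7.79 in wild type, a difference of -0.29 without overlap (limma unadjusted p = 0.0344, adjusted p = 0.998). Bmi1, its partner, differed by -0.48 with overlap. Neither list held a gene that passed limma after adjustment.

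Upstream of the Hox genes, 7 of 16 genes of hindbrain segmentation and retinoic acid signalling, which switches on the front Hox genes in the embryo, lay above the limit on all arrays. This is 43.8%, against 57.1% of all genes. Aldh1a1 and Cyp26b1, which make and degrade retinoic acid, had means of 10.60 and 6.64, and the receptor Rxrb had 8.48. Rara and Rarg, retinoic acid receptors, differed by 0.31 and 0.31 and did not pass. Of the genes that flank the Hox clusters, 9 of 13 lay above the limit on all arrays (69.2%). Atp5g3, Hibadh and Cbx5 had the highest means, at 11.79, 9.46 and 9.22, and Mtx2 and Lnpk, beside HoxD, differed by 0.22 and -0.31. Evx1 and Evx2, homeobox genes at the ends of HoxA and HoxD, had means of 4.51 and 4.92 and lay below the limit on every array, as most Hox genes did.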

How the data were processed

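The authors deposited 1 log2 expression value per probe set and array, made by RMA with the affy package per the submitters' processing notes. RMA matches the probe distributions of the arrays and does not model probe sequence in its background, so dim values differ between probe sets for reasons other than transcript. Deposited values ran from 2.46 to 13.45. Of the probe sets, 64 for controls were dropped and 45037 tested, of which 34945 have 1 gene symbol. All 48 Hox probe sets matched the RefSeq gene table by identifier and symbol.

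The genotype test was lmFit with eBayes from limma 3.58.1 (R 4.3.3), 2-sided, at an adjusted p of 0.05 with 95% intervals, over all tested probe sets. The procedure was run on simulated data with independent noise for each probe set and array. That simulation held no shift shared across an array, so it does not show how the test behaves under such shifts. A gene was called above the dim limit where it exceeded the 95th percentile of 69 olfactory and vomeronasal receptor genes (the brightest probe set of each) on every array. A value equal to the limit was not above it. Precision is limited by having 3 arrays per genotype.

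The Hox genes, the 12 other gene lists and the tests were chosen with earlier results of these data known. Named were the Hox genes above the limit on all arrays, the 8 with the highest mean, the 5 per direction with the smallest p, groups 1 to 4, all cofactors and organiser genes, and in other lists the 3 with the highest mean and the 2 with the smallest p. Some further Hox genes, list members and the 4 promoters were named after their values were seen. Alternatives were the replicate number as a block, renewed quantile normalization, median centring, a minimum mean of 5, a trended and robust variance prior, the hybridization control level as a covariate, each array left out, averaging a gene's probe sets, no _x_at, _s_at or _a_at probe sets, and other dim limits. Protein sequences were not used here.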

Additional observations from a re-analysis of the deposited data

How the results depend on the processing

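In the count of Hox probe sets past an adjusted p of 0.05, all alternatives gave 0, as did the count over all 45037 probe sets. At an unadjusted p of 0.05 all probe sets held 817 calls, 7254 without daDREAM replicate 1 and 10471 with the hybridization control covariate. With the replicate number as a block the Hox median difference was 0.057, as without it. For arrays of the same number the r of deviations was 0.12, -0.28 and 0.32 for numbers 1 to 3. Between arrays of different numbers it ran from -0.435 to 0.488. The labels name no pairs, and the numbers were not taken as pairs. With 3 arrays per genotype these values cannot exclude an effect shared by arrays of the same number.

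With a minimum mean of 5, which left 9 Hox genes, the median difference was 0.17 and 0 genes did not overlap. The median was -0.32 with the hybridization control covariate, and there 8 of 14 named Hox genes changed sign: Hoxa3 to -0.32, Hoxa5 to -0.41, Hoxa7 to -0.25, Hoxb13 to -0.22, Hoxb2 to -0.12, Hoxb3 to -0.71, Hoxc6 to -0.64 and Hoxc9 to -0.44. The control means of the genotypes overlapped only between daDREAM replicate 1 (9.47) and wild-type replicate 3 (9.48). Leaving out 1 array, the median ran from 0.007 to 0.13, the genes without overlap from 3 to 11, Hoxa3 from -0.055 to 0.24 and Hoxb3 from -0.085 to 0.52. The cause was not tested.

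Of the Hox genes above the dim limit, 6 in all and 4 of groups 1 to 8, the count was 0 and 0 with the 99th percentile, 0 and 0 with keratin genes, 2 and 2 with groups 9 to 13 as dim range, and 2 and 1 with the mean of the probe sets. Leaving out any 1 array it stayed 6 and 4. The remaining settings, the 90th percentile among them, gave 5 to 8 and 3 to 6. Without detection calls, low transcript levels cannot be separated from background.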

Other observations

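Of the 8 further probe sets whose annotation carries a Hox symbol outside the rule, 5 belong to non-coding RNAs transcribed within the clusters and 3 to pairs of neighbouring genes. Hoxb5os, on the HoxB cluster, had 4.59, 5.29 and 5.22 in daDREAM and 4.77, 4.97 and 5.19 in wild type, above the dim limit on 1 array. The pair of probe sets of Hoxd3os1 differed by 0.20 and 0.077, and those of Hoxa11os by -0.04 and 0.16. The probe sets shared by Hoxd4 and Hoxd3 differed by -0.14 and 0.15, and the one shared by Hoxb8 and Hoxb7 by -0.03. None of these 8 passed limma (adjusted p = 0.998 for each), and 7 lay below the dim limit on all 6 arrays. Whether the probes read the strand of the RNA or of its coding neighbour was not tested.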
